A study of Mus musculus with 9 samples.

Results

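The mRNA levels of 7 genes of cholesterol synthesis were followed in the mouse hippocampus. The genes were taken by name, as 7 of the 54532 genes listed in the deposited tables. Hmgcs1, Idi1, Fdft1, Sqle and Cyp51 encode enzymes of the pathway, Srebf2 encodes its main transcription factor, and Insig1 encodes a membrane protein that holds that factor back. Bulk RNA sequencing had been performed on 9 samples of the hippocampus of C57BL/6 mice, in 3 groups of 3. The mice were obtained at 6 to 8 weeks of age. The Con group was kept on standard chow. The HMD group was given a high-methionine diet, which raises homocysteine, for 8 weeks. The Bet+HMD group had that diet for 8 weeks and then received the methyl donor betaine at 2.5% (w/v) in their drinking water for 2 weeks. Whether the methionine diet went on during the betaine weeks is not stated, and no group received betaine on the standard diet. The labels call the mice male, whereas the study's methods name females, so the sex is uncertain. No transgene or deletion was named for any group. The strain field names C57BL/6 for Bet+HMD replicate 1 and reads C57BL/7 and C57BL/8 for replicates 2 and 3.

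Brain cells make nearly all of their own cholesterol, because lipoproteins of the blood do not cross the blood-brain barrier, and in the adult astrocytes and oligodendrocytes are the main producers. Acetyl-CoA is built up to mevalonate, then to isoprenoid units, then to squalene, which is closed into a ring and trimmed to cholesterol. When sterols in the endoplasmic reticulum are scarce, the protein made from Srebf2 is escorted to the Golgi, cut and sent to the nucleus, where it induces the enzymes. When sterols are plentiful, the INSIG proteins retain it.

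Levels are given as FPKM, the number of fragments of a gene divided by its length and by the size of the library, so that levels of different genes can be compared. Con and HMD were deposited in an earlier table and again, with slightly fewer reads, in a later table that added Bet+HMD. The earlier table serves for HMD against Con, and the later one for Bet+HMD against either group. Assigned reads per library numbered 16449388 to 18566712 (earlier) and 16031464 to 18291952 (later). All 10 markers of hippocampal neurons on the list used were present in every library, with a summed level of 159.9 to 216 FPKM in the later table. The Bet+HMD libraries stood apart from the other 6: 25315 to 25663 genes had a read in them, against 20816 to 23272 in the later table's other libraries, and long intergenic noncoding RNAs took 1.40% to 1.45% of the reads against 0.476% to 0.56%. Their FPKM values summed to 249135 to 258514, against 288439 to 307899. The library size behind the deposited FPKM also differed from the assigned reads. In the later table it was 1.042 to 1.049 times the assigned reads in Bet+HMD, 0.956 to 1.005 times in HMD and 0.953 to 1.026 times in Con. The Bet+HMD samples were added with the later table, so betaine, the 2 further weeks of life and a difference between batches cannot be told apart. The labels do not say whether each library is a separate animal, and p-values measure the spread between these libraries. That spread was often small in Bet+HMD. Summed neuron markers had an SD of 6.18 FPKM there, against 131 in HMD and 105 in Con, and oligodendrocyte markers 3.71 against 152 and 276. Fdft1 and Srebf2 went the other way against HMD, with an SD of 1.32 against 0.525 and of 1.13 against 0.167. The cause was not tested.

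The promoters are shown because the pathway is known to be switched as a group, through the sterol regulatory element that SREBP proteins bind, together with CCAAT boxes bound by NF-Y and GC boxes bound by Sp1. RefSeq windows of 300 bases around a start site, on GRCm38.p6, were given for 5 of the 7 genes, and Sqle and Fdft1 had none. The printed bases end before the start of RefSeq or that of the deposited tables, whichever lies further upstream. This is the RefSeq start for Hmgcs1 and the deposited start for the other pair, 49 bases before that of RefSeq for Insig1 and 88 bases for Srebf2. They are shown for the gene that was higher in Bet+HMD (Hmgcs1, chr13:119690101-119690350, + strand), for a gene that was lower (Insig1, chr5:28071162-28071362, + strand) and for the transcription factor (Srebf2, chr15:82147019-82147180, + strand). Capitals mark the element TCACNCCAC and CCAAT boxes on either strand, the latter written ATTGG where they lie on the opposite strand.
Hmgcs1: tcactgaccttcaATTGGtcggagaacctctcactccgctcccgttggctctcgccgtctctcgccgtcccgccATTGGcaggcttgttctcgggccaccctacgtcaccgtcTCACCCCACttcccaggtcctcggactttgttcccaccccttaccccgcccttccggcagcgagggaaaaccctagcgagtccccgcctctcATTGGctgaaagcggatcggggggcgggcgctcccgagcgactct
Insig1: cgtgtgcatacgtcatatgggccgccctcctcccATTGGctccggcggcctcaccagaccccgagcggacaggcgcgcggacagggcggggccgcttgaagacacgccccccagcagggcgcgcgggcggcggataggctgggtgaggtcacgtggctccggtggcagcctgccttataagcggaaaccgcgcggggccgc
Srebf2: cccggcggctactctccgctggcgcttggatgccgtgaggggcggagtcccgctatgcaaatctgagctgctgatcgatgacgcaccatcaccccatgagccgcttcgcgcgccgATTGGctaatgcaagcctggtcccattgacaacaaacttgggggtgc
Both strands of each whole window were searched for 4 motifs. TCACNCCAC was found in the Hmgcs1 window alone of the 5, as TCACCCCAC 137 bases before the start, while 1.24% of all 32851 windows held it. The shorter CACCCCAC lay within the same letters of Hmgcs1 and in none of the other 4 windows, against 2.87% of all windows. CCAAT was present in 5 of 5 windows (37.4% of all windows) and GGGCGG likewise in 5 of 5 (35.7%). Among the 14 other enzymes of the pathway with a window, TCACNCCAC was found in 0, CACCCCAC in 1, CCAAT in 13 and GGGCGG in 12. A match is a run of letters and not a measured binding site, and a window without a match may hold other forms of the element.

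In GRCm38 coordinates of the deposited tables, all 7 being protein-coding genes, Hmgcs1 (ENSMUSG00000093930) lies at chr13:119690379-119708260, + strand. Idi1 (ENSMUSG00000058258) is on the same chromosome at chr13:8885501-8892451, + strand. Sqle (ENSMUSG00000022351, chr15:59315077-59331192) and Srebf2 (ENSMUSG00000022463, chr15:82147181-82205379) share another chromosome, both on the + strand. Insig1 (ENSMUSG00000045294, chr5:28071363-28078662, + strand) and Cyp51 (ENSMUSG00000001467, chr5:4081145-4104746, - strand) are likewise on 1 chromosome, and Fdft1 (ENSMUSG00000021273) is at chr14:63145150-63179578, - strand. FPKM covers the exons of a gene, here 3093 to 7184 bases.

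Hmgcs1 was the most abundant of the 7 mRNAs and Idi1 the least in each group. In Con of the later table the mean level ran from 48.3 ± 7.04 FPKM (SD, n = 3) for Hmgcs1 through 27.2 ± 2.74 for Srebf2, 21.2 ± 1.92 for Insig1, 16.7 ± 0.222 for Cyp51, 16.7 ± 1.33 for Fdft1 and 11.1 ± 0.484 for Sqle to 7.83 ± 1.83 for Idi1. The samples of neighbours in this order did not overlap except Fdft1 and Cyp51, which overlapped in Con and in Bet+HMD. In HMD of the earlier table the ranges of Sqle and Idi1 also met. Every member had a mean level above the minimum of 1 FPKM in each group, so all 7 were tested in each comparison. Reads per library were plentiful, for example 837 to 1137 for Sqle and 3197 to 4538 for Hmgcs1.

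**Figure D1:**
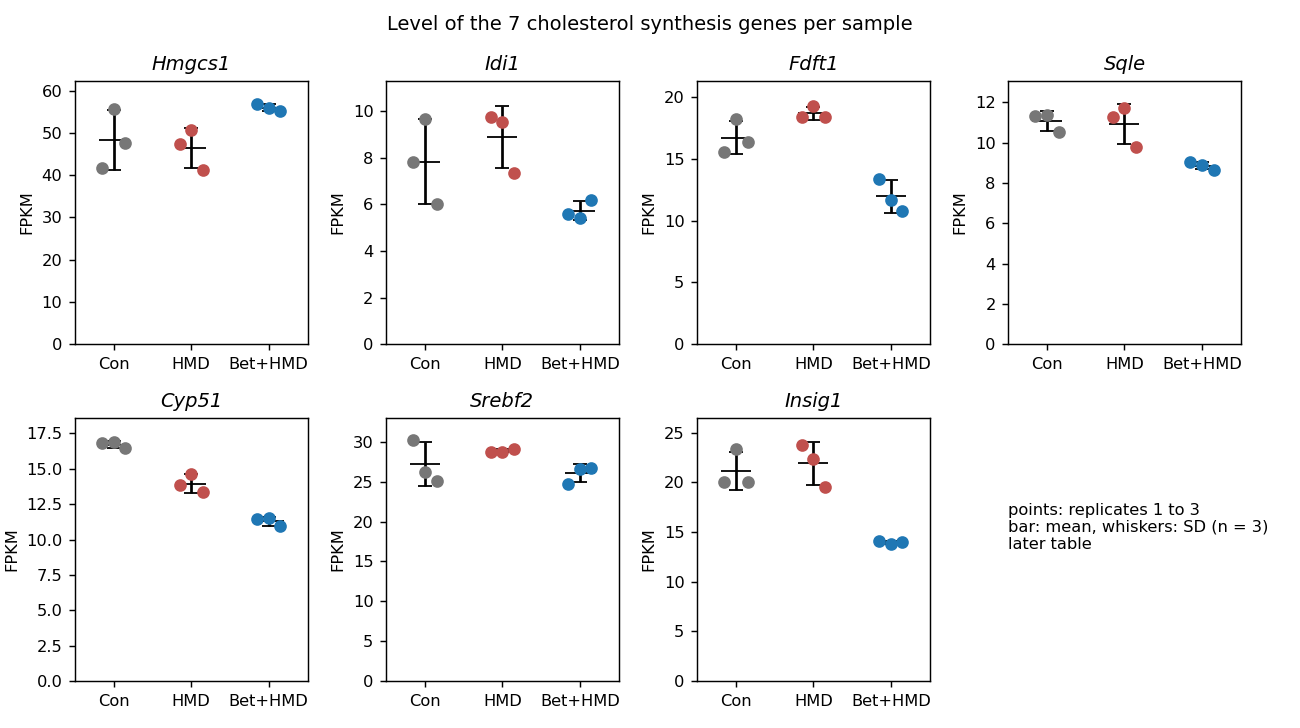
Level of each member in FPKM (vertical axis, from 0) in the 3 Con, 3 HMD and 3 Bet+HMD samples of the later table, with the mean as a bar and the SD as whiskers. Insig1 sat at 13.8 to 14.1 in Bet+HMD against 19.6 or more in the other samples, whereas Hmgcs1 was at 55.2 to 56.9 in Bet+HMD and reached 55.6 in Con.

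HMD was compared with Con to see which genes respond to the methionine diet. Of the 7 members, 0 passed the test (limma, adjusted p under 0.05 over all genes) and 0 passed with voom on the recovered reads, where 0% of the 12989 genes tested passed. Before adjustment, p was under 0.05 for 1 member, against 4.56% of all genes. The median log2 difference of the members was 0.04, and that of all genes was 0.00. A p that misses the threshold does not show equal levels, and the intervals given for each member say which differences the data allow.

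Cyp51, the lanosterol demethylase, was the member whose samples did not overlap. Its levels were 16.6, 16.6 and 16.0 FPKM in Con and 13.7, 14.4 and 13.2 in HMD. All 3 HMD samples lay below every Con sample, as did those of 4.66% of all genes, while 9.37% of genes were without overlap in either direction. The log2 difference was -0.24 (SE 0.10, 95% interval -0.46 to -0.01, adjusted p 0.98).

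The upstream enzymes were the other way or near 0. Hmgcs1, the cytosolic HMG-CoA synthase, had 40.7, 54.6 and 46.4 FPKM in Con and 46.5, 49.0 and 40.4 in HMD, fully overlapping, with a log2 difference of -0.05 (interval -0.38 to 0.28). Idi1, which interconverts the 2 isoprenoid building blocks, had 7.62, 9.45 and 5.83 FPKM in Con and 9.77, 9.20 and 7.30 in HMD (0.19, interval -0.23 to 0.61, and 0.03 to 0.34 with a sample left out). Fdft1, squalene synthase, had 15.3, 18.1 and 15.9 FPKM in Con and 18.2, 18.7 and 18.0 in HMD (0.15, interval -0.09 to 0.40). Their groups overlapped, in Fdft1 through Con replicate 2 alone, which stood at the level of the HMD samples.

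Sqle, squalene epoxidase and a rate-limiting step of the sterol branch, differed by -0.01 on the log2 scale (interval -0.26 to 0.24). Insig1 differed by 0.04 (interval -0.25 to 0.32) and Srebf2 by 0.09 (interval -0.17 to 0.35, and 0.03 to 0.17 with a sample left out). Srebf2 was tighter in HMD, at 28.1 to 28.8 FPKM, than in Con, at 24.4 to 29.8. The adjusted p of all 7 members lay between 0.98 and 0.993.

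Of the 54 other genes of the pathway, its control, uptake, export and fatty acid synthesis, 50 were tested and 0 passed, with 2 at an unadjusted p under 0.05. Among the other sterol enzymes Sc5d (-0.15) and Tm7sf2 (-0.27) were without overlap and lower in HMD, and Lss (0.10) was higher, each with an adjusted p of 0.98. Insig2 differed by -0.11, Scap, the escort of the SREBP proteins, by -0.02 and Srebf1, the paralog of Srebf2 tied mainly to fatty acid synthesis, by 0.33, with adjusted p of 0.98 to 0.992. The largest differences elsewhere were those of Pmvk (-0.32) and Mvd (-0.21) among early enzymes, Hsd17b7 (0.25) among later ones, Mbtps2 (0.12) in the control of the pathway, Mylip (-0.39) and Stard4 (0.22) in uptake, Apoe (-0.47) and Cyp7b1 (0.32) in export and turnover, and Scd1 (0.23) and Scd2 (0.16) in fatty acid synthesis, none of which passed. Markers of a neighbouring brain region moved in these libraries: all 6 tested thalamus markers were higher in every HMD sample, with a summed level of 24.7 to 85.8 FPKM against 13.9 to 18.0 in Con. Of the 6, 0 passed after adjustment and 5 were under 0.05 before it. The sum of 85.8 is that of HMD replicate 1. The 5 blood markers were also positive, with a median log2 difference of 0.66, 3 at an unadjusted p under 0.05 and sums of 146.8 to 229.6 FPKM against 97.98 to 147.5. The part of either in the members' values was not tested.

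**Figure D2:**
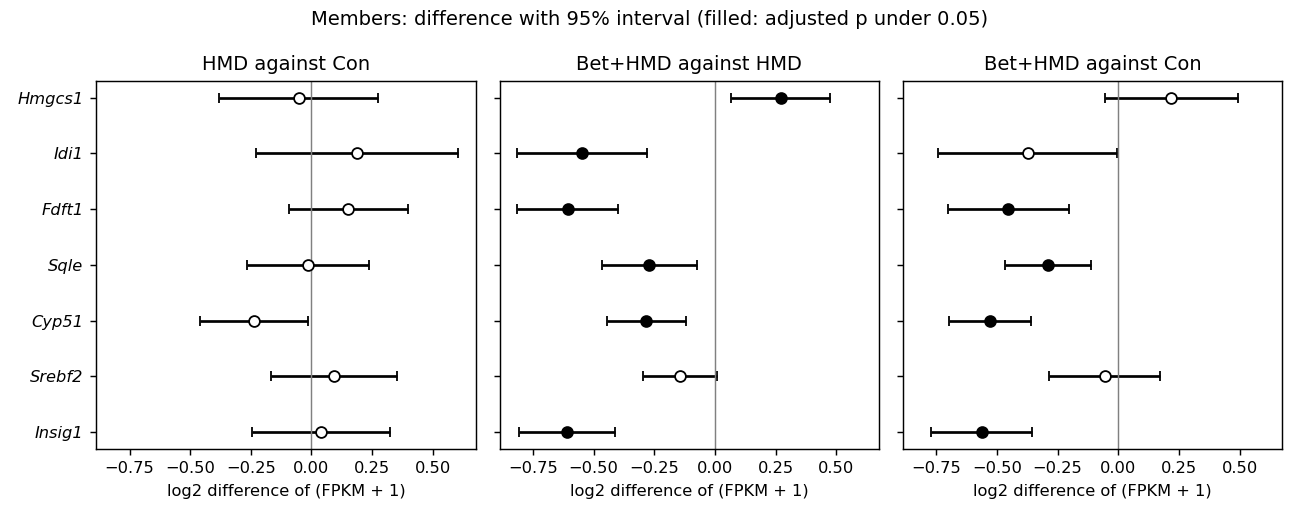
Log2 difference of (FPKM + 1) for each member (rows) in the 3 comparisons (panels), with the 95% interval of limma as bars and filled points for an adjusted p under 0.05. No point is filled in HMD against Con, 6 are filled in Bet+HMD against HMD and 4 in Bet+HMD against Con, and Hmgcs1 lies opposite to the other members in both panels with Bet+HMD on this scale, while Srebf2 takes the sign of Hmgcs1 under TPM and quantile normalization.

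Bet+HMD was compared with HMD to see what changed when betaine followed the diet. Insig1, Fdft1, Idi1, Cyp51 and Sqle were lower in Bet+HMD and Hmgcs1 was higher, so that 6 of 7 members passed the test, 1 higher and 5 lower. The background was high: 48.3% of the 13672 genes tested passed, 22.8% higher and 25.5% lower. The members were chosen with earlier results of these data known, so setting them beside all genes is a description. The 3 Bet+HMD samples lay beyond the 3 HMD samples in all 7 members, 1 above and 6 below, against 60.1% of all genes, 28.3% above and 31.8% below. No member passed with a log2 difference of at least 1 in size, as 8.93% of all genes did. Without Bet+HMD replicate 3, the members that passed were 3, where 4858 of the 13549 genes tested passed. The median difference of the members was -0.28, and that of all genes was -0.03.

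At the entry to the pathway, Hmgcs1 joins acetoacetyl-CoA and acetyl-CoA into HMG-CoA, an intermediate on the way to mevalonate. It had 47.3, 50.6 and 41.2 FPKM in HMD and 56.9, 55.8 and 55.2 in Bet+HMD. The highest HMD sample, replicate 2, stood below all Bet+HMD samples. By limma the log2 difference was 0.27 (SE 0.09, interval 0.07 to 0.47, adjusted p 0.0361). The call was lost in 4 of the 11 other settings and in 4 of the 6 fits that left out a sample, where adjusted p reached 0.113, while the difference stayed positive at 0.19 to 0.58. Over 6190 bases the span of Hmgcs1 overlaps Gm48342 on the opposite strand. Gm48342 stood at 0.0624 to 0.344 FPKM in HMD and 0.303 to 0.655 in Bet+HMD, and shared reads were not tested.

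Idi1 makes dimethylallyl diphosphate, the starter of every isoprenoid chain. Its levels were 9.74, 9.55 and 7.35 FPKM in HMD and 5.58, 5.40 and 6.18 in Bet+HMD. HMD replicate 3 stood closest to the Bet+HMD samples, and the groups did not overlap. Its log2 difference was -0.55 (SE 0.11, interval -0.82 to -0.28, adjusted p 0.00681). The first 323 bases of Idi1 overlap Gm48574 on the opposite strand, at 0 FPKM in HMD and at most 0.186 in Bet+HMD.

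Fdft1 commits farnesyl diphosphate to sterols by joining a pair of them into squalene. It had 18.3, 19.3 and 18.4 FPKM in HMD and 13.4, 11.7 and 10.8 in Bet+HMD. The gap between the groups was wider than the range within either. On the log2 scale the difference was -0.61 (SE 0.09, interval -0.81 to -0.40, adjusted p 0.00149). The last 774 bases of Fdft1 overlap Ctsb on the opposite strand, a lysosomal protease gene at 73.8 to 78.2 FPKM in HMD and 57.6 to 62.1 in Bet+HMD. The sources do not say if reads were counted by strand, so the 2 genes may share reads.

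Sqle adds the oxygen that becomes the hydroxyl group of sterols. It had 11.3, 11.7 and 9.80 FPKM in HMD and 9.04, 8.90 and 8.67 in Bet+HMD. HMD replicate 3 was near the Bet+HMD samples, and the groups were apart by less than 1 FPKM. A log2 difference of -0.27 (SE 0.08, interval -0.46 to -0.08, adjusted p 0.0311) was found. This call was lost in 4 of the 11 other settings and in 5 of the 6 fits that left out a sample, where adjusted p reached 0.10.

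Cyp51 removes a methyl group from lanosterol, the first sterol of the pathway. Its levels were 13.8, 14.7 and 13.3 FPKM in HMD and 11.4, 11.5 and 10.9 in Bet+HMD. All Bet+HMD samples lay below all HMD samples. Bet+HMD minus HMD was -0.28 on the log2 scale (SE 0.07, interval -0.44 to -0.12, adjusted p 0.0131). Without Bet+HMD replicate 3 its adjusted p was 0.0584, and it did not pass under TPM or quantile normalization. The last 166 bases of Cyp51 overlap Akap9 on the opposite strand, which stood at 3.57 to 3.99 FPKM in HMD and 5.73 to 5.87 in Bet+HMD.

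Of the regulators, Insig1 had 23.8, 22.4 and 19.6 FPKM in HMD and 14.1, 13.8 and 14.0 in Bet+HMD. The Bet+HMD samples lay close together, as in most members, and well below the lowest HMD sample. The log2 difference of -0.61 (SE 0.08, interval -0.81 to -0.41, adjusted p 0.00119) was close in size to that of Fdft1. Insig1 is itself a target of the SREBP proteins, and its annotated span overlaps no other gene listed.

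Srebf2 did not pass. It had 28.8, 28.8 and 29.1 FPKM in HMD and 24.7, 26.6 and 26.8 in Bet+HMD, without overlap. The log2 difference was -0.15 (SE 0.06, interval -0.30 to 0.01, adjusted p 0.102). Its sign depended on the scaling, with 0.05 after rescaling to TPM and 0.07 after quantile normalization. Over 2110 bases the span of Srebf2 overlaps Gm49502 on the same strand, at 0 to 0.278 FPKM in HMD and 0.518 to 0.697 in Bet+HMD. It also holds the 69 bases of Mir33, which stood at 0 in every sample.

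The lower FPKM sum of the Bet+HMD libraries bears on these values. After rescaling each library to TPM, in which all libraries have the same sum, the median of all genes moved to 0.16, and the raw differences became 0.47 for Hmgcs1, -0.44 for Insig1, -0.44 for Fdft1, -0.41 for Idi1, -0.10 for Cyp51 and -0.09 for Sqle. Cyp51 (adjusted p 0.282) and Sqle (0.402) no longer passed on that scale. Of all 13672 genes 6470 then passed, of which 4496 (69.5%) were higher, against 47.2% of the calls on the FPKM scale. Relative to that median the differences were 0.31, -0.60, -0.60, -0.57, -0.26 and -0.25, in the same order, and -0.11 for Srebf2. Insig1, Fdft1 and Idi1 passed in all 11 other settings and in all 6 fits that left out a sample.

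**Figure D3:**
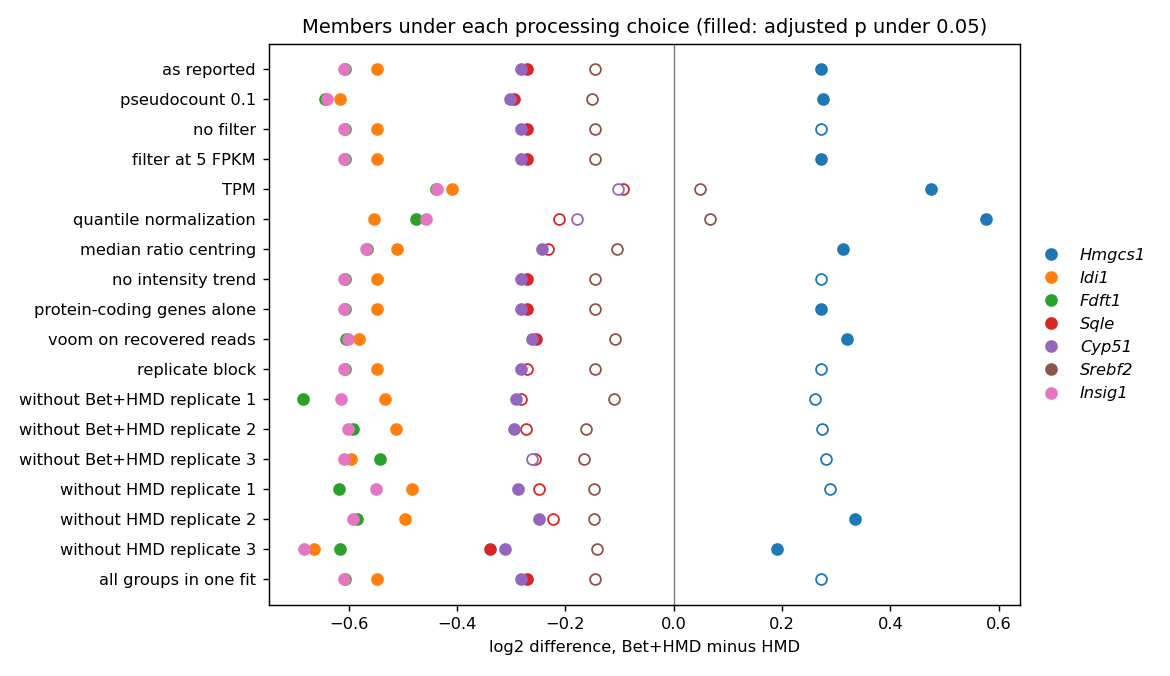
Log2 difference of each member, Bet+HMD minus HMD (horizontal axis), under the reported processing and each alternative (rows), with filled points for an adjusted p under 0.05. Idi1, Fdft1 and Insig1 stay between -0.69 and -0.41 and are filled in every row, Hmgcs1 stays between 0.19 and 0.58, and Srebf2 crosses 0 under TPM and quantile normalization.

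Ratios of 2 members within a library do not depend on the scaling of the library. These ratios were chosen after the values were seen and are given without a test. Hmgcs1 stood at 1.99 to 2.26 times the level of Insig1 in HMD, at 2.08 to 2.38 times in Con and at 3.95 to 4.03 times in Bet+HMD. Its ratio to Fdft1 was 2.24 to 2.62 in HMD, 2.67 to 3.06 in Con and 4.25 to 5.11 in Bet+HMD. Its ratio to Cyp51 was 3.09 to 3.45 in HMD, 2.48 to 3.30 in Con and 4.85 to 5.05 in Bet+HMD. In each of these, and in the ratios to Sqle and Idi1, the Bet+HMD samples lay above all other samples.

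The ratio of Insig1 to Srebf2 lay outside the other groups as well, at 0.52 to 0.571 in Bet+HMD against 0.673 to 0.826 in HMD and 0.662 to 0.894 in Con. In contrast, Insig1 relative to its paralog Insig2 was 1.16 to 1.30 in Bet+HMD, overlapping 1.27 to 1.46 in HMD and 1.19 to 1.22 in Con.

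**Figure D4:**
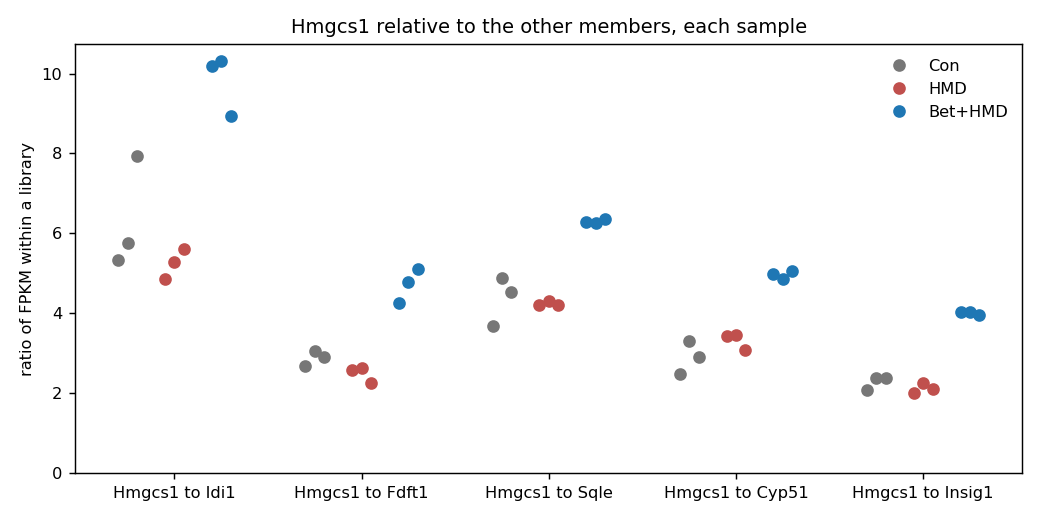
Ratio of the FPKM of Hmgcs1 to that of 5 other members within each library (vertical axis, from 0), 1 point per sample and 1 colour per group. In all 5 ratios the 3 Bet+HMD points lie above the 6 points of Con and HMD, at 3.95 to 4.03 for Insig1 and at 8.94 to 10.3 for Idi1.

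In the rest of the pathway, Bet+HMD against HMD gave calls in both directions. Of 50 other genes tested 25 passed, 7 higher and 18 lower, a split that turned to 13 higher and 5 lower under TPM, where the median of all genes is shifted. The 25 are 50% of those tested, near the 48.3% of all genes. Relative to the median of all genes, the median of these 50 was -0.14 on either scale and -0.04 under quantile normalization. Of 17 other enzymes 16 were tested and 10 passed, 3 higher and 7 lower (3 and 3 under TPM). Together with the 5 member enzymes, 15 of 21 tested passed, 4 higher and 11 lower, with a median log2 difference of -0.27. Under TPM, 4 were higher and 5 lower, and the median was -0.09, which is -0.25 relative to all genes. Of all 13672 genes 6470 passed under TPM, 4496 of them higher. Fdps, which makes farnesyl diphosphate, was assigned few reads, 4 to 11 per library in HMD. At a mean of 0.126 FPKM in HMD and 0.418 in Bet+HMD it was under the minimum level and was not tested. Whether reads of Fdps were lost in the assignment was not tested, so these values may understate its level.

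Among the enzymes leading to isoprenoids, Acat2, which makes acetoacetyl-CoA and has a close paralog with which reads may be shared, went from 13.3 ± 1.34 FPKM in HMD to 6.64 ± 0.601 in Bet+HMD (n = 3, log2 difference -0.90, adjusted p 0.000494). Mvk, mevalonate kinase (-0.39, adjusted p 0.0181), and Mvd, which removes the carboxyl group (-0.42, adjusted p 0.0112), were also lower, and these 2 did not pass under TPM (adjusted p 0.111 and 0.0693). Pmvk, the kinase between them, was higher (0.48, adjusted p 0.0302). Its Bet+HMD samples, at 7.41 to 9.95 FPKM, lay within the Con range of 5.08 to 13.0, and it did not pass against Con.

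In the sterol branch, Msmo1 (-0.53, adjusted p 0.00715), Nsdhl (-0.47, adjusted p 0.0068) and Hsd17b7 (-0.44, adjusted p 0.00949), which carry out the demethylation at the fourth carbon of the ring, were lower, and of them Hsd17b7 did not pass under TPM (adjusted p 0.0552). Lss, which closes the ring (0.22, adjusted p 0.0391), and Tm7sf2, a sterol reductase (0.68, adjusted p 0.00231), were higher. Tm7sf2 was low in every group, at 2.57 ± 0.0954 FPKM in Bet+HMD and 1.24 ± 0.202 in HMD.

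**Figure D5:**
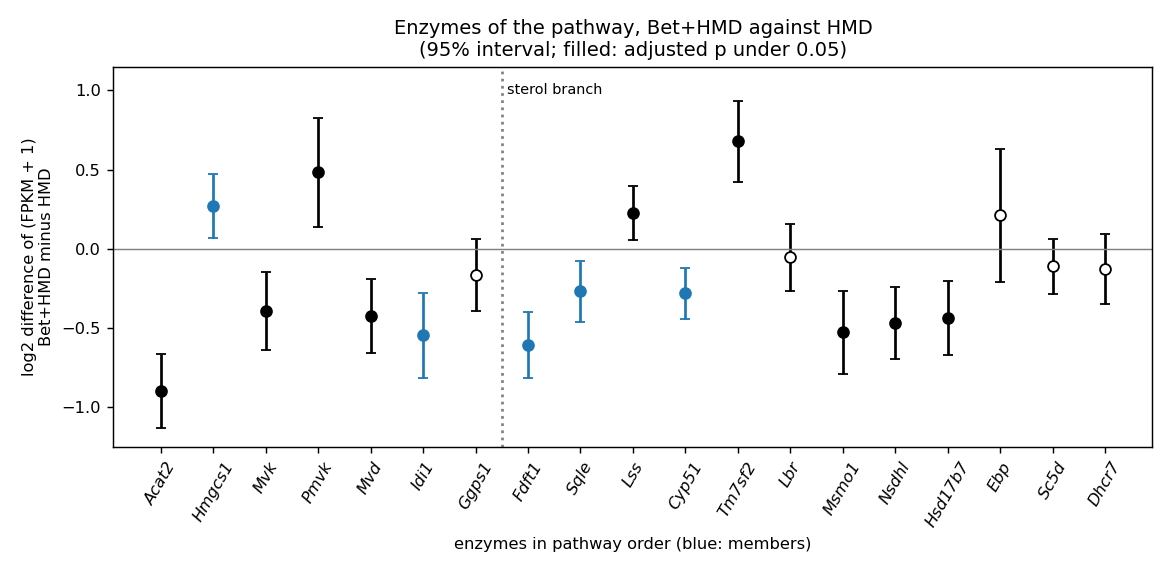
Log2 difference of (FPKM + 1), Bet+HMD minus HMD (vertical axis), for 19 of the 21 tested enzymes in pathway order, with 95% intervals, members in blue and filled points for an adjusted p under 0.05. Of the 14 filled points 10 lie below 0 (under TPM, 4 enzymes were higher and 5 lower), and Hmgcs1, Pmvk, Lss and Tm7sf2 lie above.

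Of the 6 tested genes that control the pathway, 0 were higher and 3 lower, where 48.3% of all genes passed. Under TPM 1 was higher and 0 were lower. The 3 lower genes, none of which passed under TPM, were Insig2 (-0.45, adjusted p 0.00674), Mbtps2, a protease that cuts the SREBP proteins (-0.38, adjusted p 0.032), and Srebf1 (-0.33, adjusted p 0.0252). Scap did not pass (-0.17, adjusted p 0.0931). Of 9 tested uptake genes 2 were higher and 1 lower, against 5 and 0 under TPM. Lrp8 (0.55, adjusted p 0.000981) and Lrp1 (0.34, adjusted p 0.00469), both receptors of apolipoprotein E, were the higher ones, and Stard4, a carrier of sterols, was the lower one (-0.46, adjusted p 0.0221, and 0.0905 under TPM).

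Of 9 tested genes of export and turnover, 2 were higher and 3 lower, against 3 and 1 under TPM. Apoe, the main apolipoprotein of the brain, went from 239.7 ± 52.5 FPKM in HMD to 404 ± 20.0 in Bet+HMD (0.77, adjusted p 0.00472), and Abcg4, a sterol exporter, was higher by 0.41 (adjusted p 0.00748). The Bet+HMD samples of Apoe lay within the Con range of 199.8 to 653.5 FPKM, and Apoe did not pass against Con. Lcat, which esterifies cholesterol on lipoproteins (-0.49, adjusted p 0.00696), Cyp7b1, an oxysterol hydroxylase (-0.37, adjusted p 0.00918), and Abca1, a lipid exporter (-0.34, adjusted p 0.0455), were lower, of which Lcat alone passed under TPM. Of 10 fatty acid genes 0 were higher and 4 lower (1 and 1 under TPM), namely Me1 (-0.54, adjusted p 0.00266), Scd1 (-0.37, adjusted p 0.0485), Scd2 (-0.36, adjusted p 0.00549) and Fasn (-0.35, adjusted p 0.00681), of which Me1 alone passed under TPM.

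In bulk tissue, fewer cells of a type and less RNA per cell cannot be told apart. Of the markers of the cells that make most brain cholesterol, 2 of 8 astrocyte and 5 of 10 oligodendrocyte genes were lower in Bet+HMD and 0 were higher, where 25.5% of all genes were lower. The summed astrocyte level was 762 to 765 FPKM in Bet+HMD and 751 to 825 in HMD, and the summed oligodendrocyte level was 879.9 to 887 against 962 to 1264. As a share of the library's FPKM total, which was lower in Bet+HMD, the astrocyte sum was higher there, at 0.295% to 0.307% against 0.259% to 0.282%, and the oligodendrocyte sum overlapped, at 0.342% to 0.356% against 0.329% to 0.434%. Under TPM 1 astrocyte marker was higher and 2 lower, and 1 oligodendrocyte marker was higher and 4 lower. On that scale 6470 of all 13672 genes passed, 4496 of them higher. Of 8 neuron markers 4 were lower and 1 higher, with sums of 1376 to 1388 against 1456 to 1684. Their share of the total overlapped, at 0.532% to 0.556% against 0.501% to 0.576%, and under TPM 2 were lower and 1 higher. Among microglia markers 3 of 6 were lower, with sums of 86.1 to 89.5 against 95.1 to 115 and overlapping shares of 0.0341% to 0.035% against 0.0325% to 0.0397%. Under TPM 1 of them was higher and 2 were lower. Of 6 endothelial markers 2 were lower and 1 higher, and of 5 blood markers 2 were lower, with blood sums of 72.2 to 122 FPKM against 149 to 233. Under TPM 1 endothelial marker was lower and 2 were higher, and 2 blood markers were lower. The blood share of the total stayed apart, at 0.029% to 0.0473% against 0.0511% to 0.0805%. The summed hippocampal markers were 159.9 to 162.5 FPKM against 175 to 204, and the summed thalamus markers 22.6 to 24.0 against 25.6 to 87.0. As shares of the total both overlapped. They were 0.0619% to 0.0643% against 0.06% to 0.0704% for hippocampus, and 0.00896% to 0.00946% against 0.00875% to 0.0298% for thalamus. Of 10 hippocampal markers 3 were lower and 0 higher, and under TPM 2 were lower and 3 higher. Of 6 thalamus markers 2 were lower, and 0 under TPM. None of these lists had a gene at 0 in a library, and the part of the cell types in the members' values was not tested.

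Bet+HMD was also compared with Con, a comparison that shares the Bet+HMD samples with the one above. Of the 7 members, Insig1, Cyp51, Fdft1 and Sqle passed and all 4 were lower. Of the 13643 genes tested 39.7% passed, 19.4% as higher and 20.4% as lower. The samples of these 4 members did not overlap, against 55.1% of all genes without overlap and 29% lying lower. Under TPM 2 members were lower and 1 higher, where 5412 of the 13643 genes passed, 3980 of them as higher. No member passed with a log2 difference of at least 1 in size, as 8.74% of all genes did. The median difference of the members was -0.37, and that of all genes -0.04.

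Cyp51 had 16.8, 16.9 and 16.5 FPKM in Con, above the 13.3 to 14.7 of HMD and the 10.9 to 11.5 of Bet+HMD. The 3 groups formed 3 separate steps in this gene. Bet+HMD against Con differed by -0.53 (SE 0.07, interval -0.70 to -0.36, adjusted p 0.00195). Insig1 had 20.0, 23.4 and 20.1 FPKM in Con, beside 13.8 to 14.1 in Bet+HMD, and differed by -0.56 (SE 0.09, adjusted p 0.0033). Fdft1 had 15.6, 18.2 and 16.4 FPKM in Con and differed by -0.45 (SE 0.11, adjusted p 0.0147), which became -0.26 (adjusted p 0.0758) under TPM.

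Sqle had 11.3, 11.4 and 10.5 FPKM in Con, above all Bet+HMD samples, and differed by -0.29 (SE 0.07, adjusted p 0.0209). Under TPM, where the median of all genes lay at 0.17, this was -0.10 (adjusted p 0.368). Only Insig1 and Cyp51 of the members passed in all 11 other settings and in all 6 fits that left out a sample. Without Bet+HMD replicate 2, or without replicate 3, those 2 members were the ones left. In these fits 3347 of 13524 and 3302 of 13548 genes passed.

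The other 3 members did not pass, and their groups overlapped. Hmgcs1 had 41.6, 55.6 and 47.7 FPKM in Con, and Con replicate 2 reached the lower end of Bet+HMD (0.22, interval -0.06 to 0.49, adjusted p 0.176). It passed in 2 of the 11 other settings, TPM among them (0.44, adjusted p 0.0152), and without Con replicate 2 (0.32, adjusted p 0.0278). Idi1 had 7.81, 9.66 and 6.00 FPKM in Con, where replicate 3 stood within Bet+HMD (-0.37, interval -0.74 to -0.01, adjusted p 0.0967), and it passed without that sample (-0.53, adjusted p 0.0107). Srebf2 had 30.3, 26.2 and 25.1 FPKM in Con, of which the first lay above all Bet+HMD samples and the others within their range (-0.06, interval -0.29 to 0.17, adjusted p 0.672), and its sign was positive under TPM (0.16) and quantile normalization (0.17).

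Of the 50 other pathway genes tested against Con, 14 passed, 6 higher and 8 lower (10 and 5 under TPM). This is a smaller share than the 39.7% of all genes that passed, 19.4% higher and 20.4% lower. The count was 25 without Con replicate 3, and 6, 5 and 5 without Bet+HMD replicate 1, 2 or 3. Calls over all genes in these fits were 6269, and 3424, 3347 and 3302. The largest fall among the pathway genes was that of Acat2 (-0.82, adjusted p 0.000878), and the largest rise that of Lrp8 (0.56, adjusted p 0.00472). Msmo1 passed as lower here (-0.55, adjusted p 0.0144), as did Sc5d (-0.27, adjusted p 0.0386), Insig2 (-0.56, adjusted p 0.00442), Lcat (-0.64, adjusted p 0.0111) and Me1 (-0.56, adjusted p 0.00379), and of these Sc5d did not pass under TPM (adjusted p 0.654). Besides Lrp8, the higher genes were Tm7sf2 (0.42, adjusted p 0.0163), Lrp1 (0.42, adjusted p 0.0244), Abcg4 (0.35, adjusted p 0.0215), Lss (0.32, adjusted p 0.0167) and Npc1, a lysosomal cholesterol carrier (0.30, adjusted p 0.0184). Scap (-0.21, adjusted p 0.163) and Srebf1 (-0.00, adjusted p 0.985) did not pass. Of the cell markers, 3 of 8 for astrocytes, 4 of 10 for oligodendrocytes and 2 of 8 for neurons were lower in Bet+HMD than in Con, and 0 of these were higher, where 20.4% of all genes were lower. Under TPM 0 astrocyte, 1 oligodendrocyte and 0 neuron markers were lower, and 1 neuron marker was higher. On that scale 5412 of all 13643 genes passed, 3980 of them higher. Of 10 hippocampal markers 1 was higher and 3 lower, of 6 microglia markers 0 and 3, of 6 endothelial markers 0 and 2, of 5 blood markers 1 and 1, and of 4 tested thalamus markers 2 and 0. Under TPM these counts were 4 and 2, 0 and 2, 1 and 1, 1 and 1, and 3 and 0, in the same order.

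Across the 9 samples of the later table, the members varied together to differing degrees. Each gene was set on a common scale over the 9 samples, and the mean of the 7 members was taken as their pattern. Since members enter this mean, their own correlations with it are raised. Pearson's r with it was 0.974 for Sqle, 0.97 for Insig1, 0.939 for Idi1, 0.892 for Fdft1, 0.807 for Cyp51 and 0.525 for Srebf2, and it was -0.411 for Hmgcs1. Once the mean of each group was taken out, 17 of the 21 pairs of members had a positive correlation, with a median of 0.455 and a range of -0.623 to 0.858, and Hmgcs1 then correlated with the common pattern at 0.688. These points share library, depth and scaling, so the coefficients are descriptions.

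The 5 other genes most like the pattern over these 9 samples, of 13464 genes, were Pdgfra (r = 0.996), Mtmr6 (0.992), Tmem38b (0.989), Vps41 (0.988) and Nomo1 (0.988). Pdgfra, the receptor that marks oligodendrocyte precursors, had 8.09 to 9.55 FPKM in Con, 8.32 to 9.78 in HMD and 6.85 to 7.00 in Bet+HMD. The other 4 were likewise lower in all Bet+HMD samples than in any other sample. Of the remaining pathway genes, Msmo1 came closest, at place 46 with r = 0.974.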

How the data were processed

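Hippocampal RNA of 9 samples was analysed. Per the study's methods, which describe the diet samples, ribosomal RNA was depleted and stranded paired-end libraries were made. The submitters' processing notes name HISAT2 2.1.0, featureCounts 1.5.0-p3 and mm10, and the study's methods give other versions. The authors deposited FPKM per gene in 2 tables, with gene length (another unit, used unchanged), position and biotype. Columns prefixed COL were read as Con by inference. In every column 100% of FPKM values gave whole reads (within 0.05 read or a relative 1e-05) after multiplication by gene length and library size. The 6 samples in both tables had 0.312% to 5.49% fewer reads in the later one, so tests stayed within a table. At this depth 3 reads are at most 1.87e-05% of a library, which covers counting error only.

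limma 3.58.1 (R 4.3.3, empirical Bayes with intensity trend) modelled log2(FPKM + 1) in the 2 groups of each comparison, for genes with a mean of at least 1 FPKM. This takes the place of the count tool of the study's methods. p-values were two-sided and adjusted by Benjamini-Hochberg over all genes tested, with a threshold of 0.05. Fold changes on this scale understate those of low genes. The method was tested on simulated data with few changed genes and the same spread in every group. The betaine comparisons differ from that setting in both respects, so the simulation does not check their calls. Python 3.11.15 (pandas 2.3.3, numpy 2.4.6, matplotlib 3.10.9) was used for summaries.

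The members and the gene lists were chosen with earlier results of these data known. Genes named were all members, up to 4 per direction and list among those that passed (if none passed, the 2 with the largest difference), Insig2, Scap and Srebf1 always, and the 5 genes most like the members' mean. Some genes count in the lists and are not reported here singly. Sc5d and Lss in HMD against Con were named after their values were seen, and lists of cell markers are given by counts and sums. The alternatives were a pseudocount of 0.1, no filter, a filter at 5 FPKM, TPM, quantile normalization, median ratio centring, no intensity trend, protein-coding genes alone, voom on the recovered reads, a replicate block, all groups in one fit, the later table for the diet comparison, and each sample left out in turn.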

Additional observations from a re-analysis of the deposited data

How the results depend on the processing

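Of the 6 counts of genes that passed, those of HMD against Con were 0 for members and other pathway genes under every alternative. Over all genes, limma called 2 genes without Con replicate 2 and 9 in one fit of all groups. Members that passed in Bet+HMD against HMD were 4 to 6 under the alternatives that kept all samples, and 3 to 6 (3 without Bet+HMD replicate 3) when a sample was left out. In Bet+HMD against Con they were 3 or 4, and 2 to 5 when a sample was left out (2 without Bet+HMD replicate 2 or 3). Other pathway genes that passed against Con were 5 to 25 when a sample was left out and 6 under the replicate block. That block also gave 4 members against HMD and 3 against Con, and adjusted p of 0.0707 for Hmgcs1 and 0.0662 for Sqle against HMD. The reported fits did not pair samples by number. Deviations of same-numbered samples correlated at -0.0555 to 0.346 in HMD against Con, where replicates 2 and 3 gave 0.346 and 0.319. They correlated at -0.151 to 0.0171 in Bet+HMD against HMD and at -0.176 to -0.0489 in Bet+HMD against Con. Differently numbered samples were not set beside these values, so they do not decide whether the numbers pair the samples. All-gene calls moved from 5422 to 3302 to 3424 against Con without a Bet+HMD replicate, and with the filter at 5 FPKM, which tests fewer genes, to 3260 against Con and from 6607 to 4166 against HMD. Against HMD all-gene calls were 4782 to 4858 without a Bet+HMD replicate. The replicate block gave 5615 all-gene calls against HMD and 3924 against Con. Signs of small differences turned, and in each case the cause was not tested. Under TPM these were Sqle in HMD against Con (0.0032), Srebf2 (0.049) and Scap (0.012) in Bet+HMD against HMD, and Srebf2 (0.16) and Srebf1 (0.21) in Bet+HMD against Con. Under quantile normalization they were Srebf2 (0.068) against HMD, and Srebf2 (0.17) and Srebf1 (0.079) against Con. Srebf1 against Con was also positive with median ratio centring (0.039) and voom (0.043). With a sample left out, HMD against Con ranged from -0.15 to 0.054 for Hmgcs1, -0.051 to 0.053 for Sqle, -0.024 to 0.11 for Insig1, -0.12 to 0.049 for Scap, -0.56 to 0.042 for Pmvk, -0.42 to 0.00041 for Mvd, -0.052 to 0.30 for Mbtps2 and -0.83 to 0.0079 for Apoe. Bet+HMD against Con ranged from -0.11 to 0.021 for Srebf2 and -0.13 to 0.085 for Srebf1. Groups of 3 limit every value here. Depth was lowest among members for Idi1, with 335 to 593 reads per library of the later table, and lower still for some other genes, with 92 to 153 reads for Mvd in HMD and Bet+HMD and 4 to 11 for Fdps in HMD.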
